A study of Mus musculus with 6 samples.

Results

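The lysyl oxidase family of the mouse holds 5 genes, Lox and Loxl1 to Loxl4. They were taken by gene name from a table of 54532 genes measured in bone, and all 5 were among the 13619 genes with a mean level of at least 1 FPKM (sequenced fragments per kilobase of exon, put on a common library size). Total RNA came from flash-frozen bone of female C57BL/6J mice aged 16 weeks, in 3 wild-type libraries and 3 libraries of MIR29cb2-/- mice, which lack the microRNA cluster of miR-29b-2 and miR-29c and are called knockout here. The sources used here do not give the bone sampled, whether marrow was left in it, the deleted interval or the number of animals behind each library. The spread that p-values rest on is therefore that of 3 libraries per group, some of which may be technical.

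Lysyl oxidases are secreted, copper-dependent amine oxidases. They turn lysines and hydroxylysines of collagen and elastin into reactive aldehydes, which then join into the covalent cross-links that give bone matrix, tendon and elastic fibres their strength. Lox and Loxl1 are made with a propeptide that proteases such as Bmp1 remove, while Loxl2, Loxl3 and Loxl4 carry scavenger receptor cysteine-rich domains in its place. The miR-29 family is known for binding messages of collagens and other matrix proteins, and microRNAs bind through the seed, bases 2 to 8, to matching letters in 3′ UTRs.

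The deleted microRNAs and the sister microRNA of another locus are shown because they share a single seed, given in capitals (5′ to 3′, RefSeq, GRCm38.p6). The mature miR-29c is encoded on chromosome 1 from 195037600 to 195037621 (plus strand). The mature miR-29b is encoded there from 195037091 to 195037113 (plus strand) and again at the sister locus on chromosome 6, beside miR-29a, which lies from 31062673 to 31062694 on the minus strand.
mmu-miR-29b-3p: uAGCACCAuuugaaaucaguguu
mmu-miR-29c-3p: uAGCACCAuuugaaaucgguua
mmu-miR-29a-3p: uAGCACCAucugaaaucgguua

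Matches to this seed were found in the annotated 3′ UTRs of 3 of the 5 members. The 7mer TGGTGCT, the complement of the seed, was searched on the sense strand of the GENCODE M21 3′ UTRs, and the 8mer TGGTGCTA, which contains the 7mer, adds the letter opposite the first base of the microRNA. Loxl2 held 2 8mers in a 3′ UTR of 2715 bases, Loxl4 held 1 7mer in 1352 bases, and Lox held 3 7mers in 3160 bases, none of them an 8mer. Loxl1 (1173 bases) and Loxl3 (1689 bases) held none, and Loxl1 alone of these held the shorter 6mer GGTGCT. The windows of Loxl2 and Loxl4 are shown with the 7mer in capitals to set the 8mers beside the 7mer (mm10, sense strand). The first Loxl2 site starts at UTR position 1629 (chr14:69694748-69694754, plus strand), the other at position 1991 (chr14:69695110-69695116), and the Loxl4 site at position 307 (chr19:42595021-42595027, minus strand).
Loxl2 first site: ccccagctcatggaaTGGTGCTa
Loxl2 other site: agatagcattgtgaaTGGTGCTa
Loxl4 site: aaggccccctctaagTGGTGCTt

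Among the 11662 genes tested that have an annotated 3′ UTR, 16.3% held the 7mer, 3.28% the 8mer and 34.7% the 6mer. Genes with the 7mer had a median log2 change of 0.06 in the knockout, and genes without it had one of 0.05. A match of letters is a description of these sequences and does not show that the microRNA binds there.

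Libraries were of similar depth, with 17719442 to 21295144 reads recovered from the FPKM values. Replicate 2 of the wild type and replicate 1 of the knockout stood apart from the rest: their FPKM values summed to 489576 and 487102, where those of the remaining libraries summed to 355787 to 404994. Across genes, Spearman's rho of exon length with the deviation from the group's mean was -0.42 and -0.45 in this pair of libraries and 0.18 to 0.41 in the rest. The deletion itself could not be checked, because libraries of this kind do not capture RNAs as short as mature microRNAs. The values of Mir29b-2 and Mir29c are 0 throughout. The host transcript A330023F24Rik differed between the genotypes, at 0.162 ± 0.0315 FPKM in wild type and 3.28 ± 0.788 FPKM in knockout bone (SD, n = 3; limma adjusted p = 0.00676). It reached the filter through its knockout levels, since every wild-type library was under 1 FPKM.

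To ask how the cross-linking enzymes differ between the genotypes, each member was compared in the knockout and the wild type. Every member was lower in knockout bone in all libraries, with wild-type means 1.52 to 4.27 times the knockout means. Lox and Loxl1, the most abundant members, fell past the limma threshold (adjusted p under 0.05 over all genes). Loxl2, Loxl3 and Loxl4 had lower means and did not pass. The 2 members called lower compare with 3.82% of all genes tested, and no member was called higher, against 1.34% of all genes. For each of the 5 members all 3 knockout libraries lay below all 3 wild-type libraries, which 13.7% of all genes tested showed as well. The two-sided exact permutation p was 0.1 for each member, the smallest that 3 against 3 libraries allow.

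**Figure D1:**
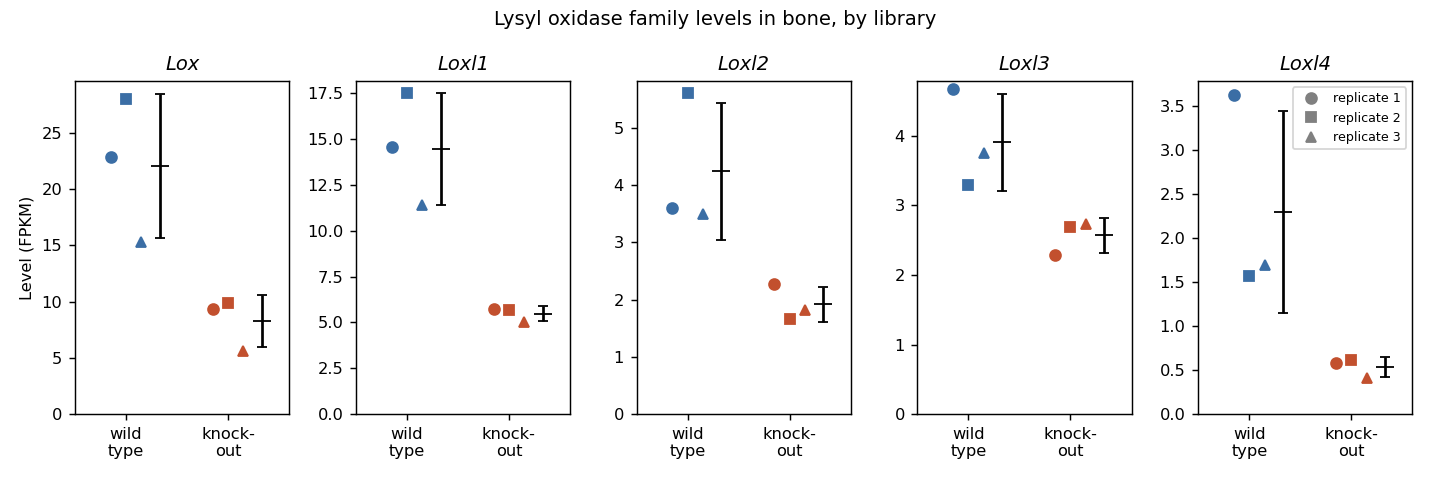
Level of each member in FPKM (y axis, linear and starting at 0, with its own scale per gene) in wild-type (blue) and knockout (red) libraries, 1 point per library with the shape giving the replicate number, and bars of mean ± SD (n = 3). All knockout points lie below all wild-type points for each gene, and the gap is narrowest for Loxl3, with 3.28 FPKM as the lowest wild-type value and 2.74 FPKM as the highest knockout value.

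Lox (ENSMUSG00000024529; chromosome 18, 52516067 to 52529867, minus strand, mm10) encodes the founding enzyme of the family, which cross-links fibrillar collagens and elastin. Its level was 22.9, 28.0 and 15.3 FPKM in wild-type replicates 1, 2 and 3 and 9.38, 9.91 and 5.61 FPKM in the knockout replicates. Replicate 3 was the lowest library of both groups, and the lowest wild-type value was 1.55 times the highest knockout value. The means were 22.1 ± 6.39 and 8.30 ± 2.34 FPKM (SD, n = 3), a ratio of 2.66. On the log2(FPKM + 1) scale the change was -1.31 ± 0.27 (SE; limma adjusted p = 0.0427), from 467 to 2629 reads per library. The call did not hold without wild-type replicate 1 (limma adjusted p = 0.140) or 2 (0.0924), without knockout replicate 1 (0.0898), 2 (0.107) or 3 (0.0895), or without both libraries that stood apart (0.106), though the change stayed negative throughout. With library weights it was -0.84.

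Loxl1 (ENSMUSG00000032334; chromosome 9, 58287738 to 58313186, minus strand) encodes the enzyme known for elastic fibre maintenance. Wild-type replicates 1 to 3 held 14.5, 17.5 and 11.4 FPKM, and the knockout replicates held 5.73, 5.70 and 5.03 FPKM. The knockout libraries were close together, the highest at 1.14 times the lowest, and the lowest wild-type value was 1.99 times the highest knockout value. The mean went from 14.5 ± 3.05 to 5.48 ± 0.393 FPKM (SD, n = 3), a ratio of 2.64. The log2 change was -1.24 ± 0.16 (SE; limma adjusted p = 0.0153). The call, though not the size of the change (-1.22 and -1.26), was lost without wild-type replicate 1 (limma adjusted p = 0.0664) and without knockout replicate 2 (0.0669).

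Loxl2 (ENSMUSG00000034205; chromosome 14, 69609068 to 69695834, plus strand) encodes an enzyme known for cross-linking collagen IV of basement membranes. It stood at 3.60, 5.61 and 3.50 FPKM in wild type and at 2.27, 1.67 and 1.83 FPKM in the knockout. Wild-type replicate 2 was above the others of its group, and the groups did not overlap. The means of 4.24 ± 1.19 and 1.92 ± 0.309 FPKM (SD, n = 3) gave a ratio of 2.21. The log2 change of -0.82 ± 0.18 missed the threshold (SE; limma adjusted p = 0.0512). With limma's voom on the recovered reads, which adds no constant to FPKM, the log2 change was -1.12 and the call was made (adjusted p = 0.0346). Its exons share 301 bases with Gm27177, an antisense gene at 0.23 to 0.457 FPKM, and these reads cannot be assigned.

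Loxl3 (ENSMUSG00000000693; chromosome 6, 83034173 to 83052562, plus strand) encodes an enzyme that mouse development needs for the palate and spine. Its values were 4.66, 3.28 and 3.76 FPKM in wild type and 2.28, 2.68 and 2.74 FPKM in the knockout, the narrowest gap of the family (a ratio of 1.20 between the lowest wild-type and the highest knockout library). The means were 3.90 ± 0.700 and 2.57 ± 0.249 FPKM (SD, n = 3), and the log2 change of -0.45 ± 0.14 (SE) did not pass (limma adjusted p = 0.124). The exons of Loxl3 share 535 bases with those of Htra2, a mitochondrial protease gene on the opposite strand (83051266 to 83055273). Htra2 stood at 18.5 to 22.3 FPKM in wild type and 24.7 to 30.2 FPKM in the knockout. It is not known whether counting used strand, so reads of the shared stretch cannot be assigned to one of them.

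Loxl4 (ENSMUSG00000025185; chromosome 19, 42593982 to 42612813, minus strand) encodes the least abundant member here. Wild-type replicate 1 held 3.62 FPKM, well above replicates 2 and 3 at 1.57 and 1.70 FPKM, and the knockout replicates held 0.587, 0.613 and 0.411 FPKM. The ratio of the means, 2.29 ± 1.15 to 0.537 ± 0.110 FPKM (SD, n = 3), was 4.27, the largest of the family. The 3 knockout libraries together held 116 reads (95% exact Poisson interval 95.9 to 139) and the wild-type libraries 572 (526 to 621), intervals that cover counting error only. The gene reached the filter through its wild-type levels, since every knockout library was under 1 FPKM. Its log2(FPKM + 1) change was -1.05 ± 0.24 (SE; limma adjusted p = 0.0576), which understates the change of so low a gene. With a constant of 0.1 FPKM in place of 1 it was -1.83, and with voom on the recovered reads it was -2.01 and passed (limma adjusted p = 0.0385).

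Against all genes tested, whose median log2 change was 0.06, the members lay toward the lower end. A more negative log2 change than that of Lox was seen in 1.71% of genes, than that of Loxl1 in 1.94%, of Loxl4 in 3.03%, of Loxl2 in 4.93% and of Loxl3 in 11.1%. Without both libraries that stood apart, the ratio of wild-type to knockout means was 2.46 for Lox, 2.42 for Loxl1, 2.03 for Loxl2, 1.55 for Loxl3 and 5.19 for Loxl4. Of the members, 1 was then called lower by limma, Loxl1.

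**Figure D2:**
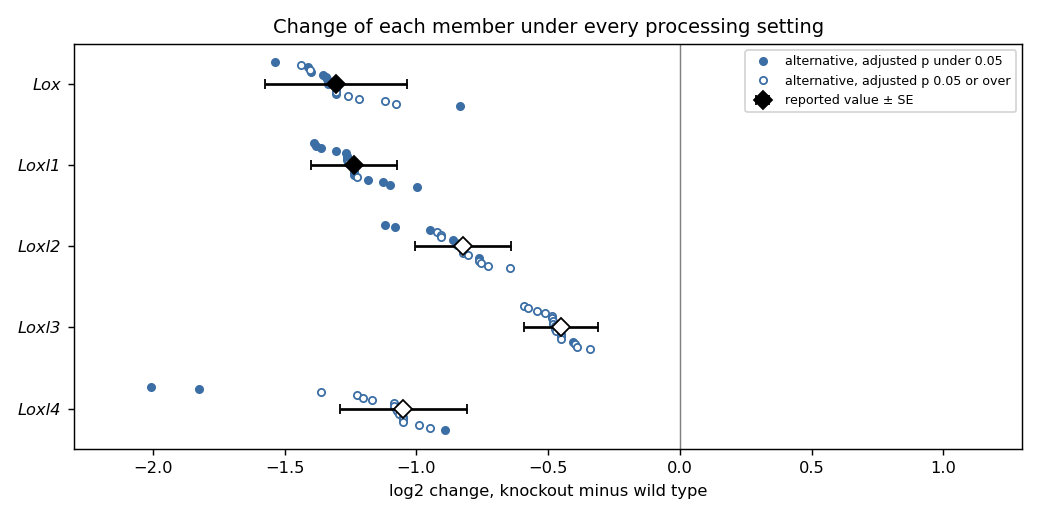
Change of each member (x axis, log2 units, knockout minus wild type) as reported (black diamonds with SE bars, filled where the limma adjusted p was under 0.05) and under each alternative processing or left-out library (circles, filled where the adjusted p was under 0.05). Every point lies to the left of 0, and Loxl4 spreads most, from -2.01 to -0.89.

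FPKM is scaled by exon length, and on that basis levels of different members are set side by side here, with limits. Within libraries the deviations still followed exon length (rho of -0.45 to 0.41). The length behind Lox differs from the annotated one, and Loxl3 shares exon bases with Htra2. Lox was the highest and Loxl1 the next in each of the 6 libraries. In wild type the ranges of Lox and Loxl1 overlapped between libraries, and Loxl1 stood clear of Loxl2. The ranges of Loxl2 and Loxl3 and of Loxl3 and Loxl4 overlapped. Loxl3 was above Loxl4 in each wild-type library, and the place of Loxl2 varied from library to library. In the knockout the order was Lox, Loxl1, Loxl3, Loxl2 and Loxl4 in every library, and among neighbours in that order only the ranges of Lox and Loxl1 overlapped.

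The summed level of the family was lower in every knockout library than in any wild-type library. The 5 members added up to 49.3, 55.9 and 35.6 FPKM in wild type and to 20.2, 20.6 and 15.6 FPKM in the knockout (47.0 ± 10.4 and 18.8 ± 2.77, SD, n = 3; exact permutation p = 0.1). Lox made up 46.5 ± 3.55% of this sum in wild type and 43.5 ± 6.61% in the knockout (exact permutation p = 0.6, n = 3), and Loxl1 30.9 ± 1.26% and 29.4 ± 2.45% (exact permutation p = 0.4, n = 3). The share of Loxl2 was 9.05 ± 1.51% and 10.3 ± 1.95% (exact permutation p = 0.5, n = 3). Loxl3 was the only member whose shares did not overlap between the groups. It took 9.46, 5.87 and 10.5% in wild type and 11.3, 13.0 and 17.5% in the knockout (exact permutation p = 0.1, n = 3). Loxl3 shares exon bases with Htra2, which was more abundant and higher in the knockout, and the part of that in its shares was not tested. Loxl4 took 7.34, 2.80 and 4.76% in wild type and 2.90, 2.98 and 2.63% in the knockout, with overlap (exact permutation p = 0.3, n = 3).

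**Figure D3:**
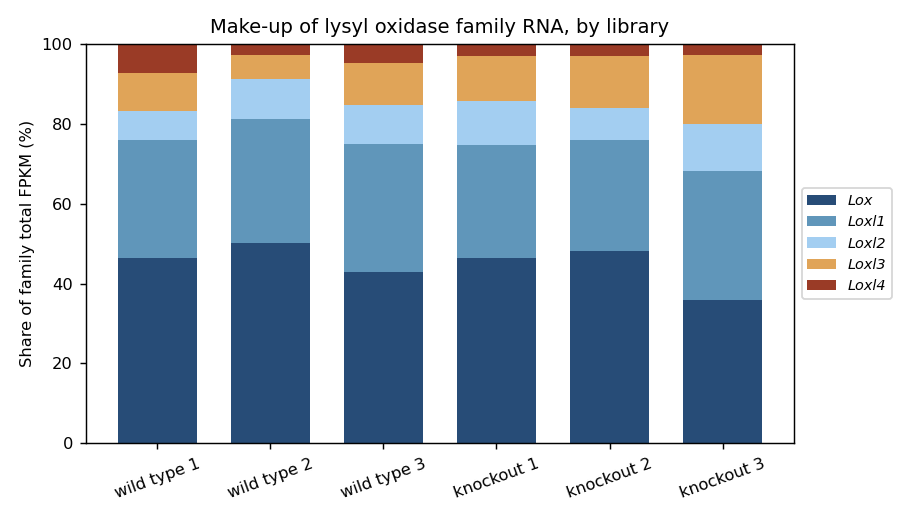
Share of each member in the summed FPKM of the family (y axis, percent) in each of the 6 libraries, as stacked bars that add to 100. Lox and Loxl1 fill most of every bar, and the Loxl3 band is taller in each knockout bar (11.3 to 17.5%) than in any wild-type bar (5.87 to 10.5%).

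Whether members changed by different amounts was tested in the 10 pairs, by the difference of their log2(FPKM + 1) values in each library. The groups did not overlap in 4 pairs, each with an exact permutation p of 0.1 (n = 3 per group; 0.25 after Benjamini-Hochberg adjustment over the 10 pairs), and 3 against 3 libraries cannot reach the threshold. The change of Lox minus that of Loxl3 was -0.85 ± 0.39 (SE), and that of Loxl1 minus Loxl3 was -0.79 ± 0.25. The other 2 were Loxl1 against Loxl2 (-0.41 ± 0.13) and Loxl3 against Loxl4 (0.60 ± 0.19). Reads of the exon stretch shared with Htra2 cannot be assigned, and their part in the differences that involve Loxl3 was not tested. Lox and Loxl1 differed by -0.07 ± 0.20 (exact permutation p = 0.9, n = 3). Differences that involve Loxl4 depend on the constant added, and that between Lox and Loxl4 ranged from -0.48 to 0.43 over 9 alternatives. The difference between Loxl1 and Loxl2 was -0.28 with a constant of 0.1 FPKM in place of 1.

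Among the wild-type libraries the members did not vary in the same way. Relative to the wild-type mean, replicate 2 held the highest Lox (1.27 times the mean), Loxl1 (1.21) and Loxl2 (1.32), and the lowest Loxl3 (0.842) and Loxl4 (0.684). Replicate 1 held the highest Loxl3 (1.20) and Loxl4 (1.58). Over all 6 libraries, which include both groups and so carry the difference between them, Pearson's r of the log2 levels was 0.967 for Lox and Loxl1, 0.957 for Loxl1 and Loxl2, 0.948 for Loxl3 and Loxl4, and lowest, at 0.605, for Loxl2 and Loxl3. These values describe 6 libraries and were given no p. Replicate 2 is one of the libraries that stood apart, and the part of that in these patterns was not tested.

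The genes most like each member over the 6 libraries, among 11439 protein-coding genes tested, were named by Pearson's r of log2(FPKM + 1). For Lox they were Vstm4, Mmp14, a membrane-bound collagenase, and Tsku, a secreted leucine-rich repeat protein, each with r of 0.996. For Loxl1 they were the secreted protease Htra1 (0.999), the copper-dependent peptide-amidating enzyme Pam (0.999) and the adhesion molecule Cadm1 (0.997). For Loxl2 they were Tm4sf1 (0.998), the peroxisome assembly factor Pex19 (0.998) and the small GTPase Rras (0.995). Loxl3 was most like the thyroid hormone receptor gene Thra (0.996), the TGF-beta receptor gene Tgfbr2 (0.995) and Sh3pxd2a (0.995), a scaffold of podosomes. Loxl4 was most like the sterol sensor Insig1 (0.999), Rtn4rl1 (0.998) and the G protein subunit gene Gnb4 (0.997). Such values are common with 6 libraries in 2 groups: r was above 0.95 for 250 genes with Lox, 409 with Loxl1, 279 with Loxl2, 125 with Loxl3 and 94 with Loxl4.

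The substrates of the enzymes were lower as well. All 8 fibrillar collagen genes listed here, chosen by name, lay lower in every knockout library than in any wild-type library, as did 13.7% of all genes tested. Of the 8, 4 fell past the limma threshold, against 3.82% of all genes (median log2 change -1.24, against 0.06 over all genes). Col2a1, the main collagen of cartilage, stood at 82.6, 109 and 97.3 FPKM in wild type and 13.1, 12.2 and 4.49 FPKM in the knockout (log2 change -3.27, limma adjusted p = 0.010). Col3a1, a collagen of soft connective tissue, went from 17.0 ± 1.25 to 4.75 ± 1.29 FPKM (SD, n = 3; limma adjusted p = 0.0103), and Col11a1, which lies inside cartilage fibrils, from 18.9 ± 1.77 to 6.99 ± 2.99 FPKM (limma adjusted p = 0.0312). The fourth was Col11a2 (log2 change -1.32, limma adjusted p = 0.0355), named after its values were seen. The collagen I genes of bone matrix did not pass: Col1a1 was at 565, 448 and 394 FPKM in wild type and 342, 148 and 176 FPKM in the knockout (limma adjusted p = 0.10), and Col1a2 had a log2 change of -1.14 (limma adjusted p = 0.109). Leaving out any single library gave 1 (without wild-type replicate 1) to 5 (without knockout replicate 1) fibrillar collagens called lower, with 2 in each other case.

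Of the 6 collagen IV genes, whose products form basement membranes, 2 passed the filter and both fell, against 3.82% of all genes tested. Col4a2 went from 12.0 ± 2.18 to 5.83 ± 0.213 FPKM (SD, n = 3; limma adjusted p = 0.0225) and Col4a1 from 15.1 ± 2.74 to 8.32 ± 0.588 FPKM (limma adjusted p = 0.0359). Both calls held without wild-type replicate 2 and neither without any other single library.

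In the elastic fibre list, 10 of 13 genes passed the filter, with 9 of the 10 lower in every knockout library, against 13.7% of all genes tested. Of the 10, 4 fell, against 3.82% of all genes (median log2 change of the list -0.89). They were Efemp1, a fibulin (6.00 ± 0.605 to 1.76 ± 0.130 FPKM, SD, n = 3; limma adjusted p = 0.00653), Ltbp4, which binds latent TGF-beta and aids elastin assembly (8.74 ± 0.355 to 2.13 ± 0.678 FPKM; limma adjusted p = 0.00847), Fbln2, another fibulin (3.48 ± 0.136 to 1.12 ± 0.304 FPKM; limma adjusted p = 0.0159), and, named after its values were seen, the microfibril gene Fbn1 (log2 change -0.74, limma adjusted p = 0.0494). Elastin itself, Eln, was at 1.39, 1.77 and 1.89 FPKM in wild type and 0.693, 0.851 and 0.856 FPKM in the knockout, and did not pass (log2 change -0.57, limma adjusted p = 0.0683). Eln reached the filter through its wild-type levels, since every knockout library was under 1 FPKM. Emilin1, a glycoprotein of elastic fibres, lay the other way in all libraries, at 14.4 to 18.6 FPKM in wild type and 22.5 to 25.7 FPKM in the knockout (log2 change 0.51, limma adjusted p = 0.0785). With single libraries left out, 2 to 4 genes of the list were called lower, 2 of them without wild-type replicate 1 or without knockout replicate 2.

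Among proteins that process the propeptides of lysyl oxidases and procollagens or bind the enzymes, 9 of 12 genes passed the filter. Of the 9, 4 fell, against 3.82% of all genes tested (median log2 change of the list -1.01). Fmod, a small collagen-binding proteoglycan that binds Lox, stood at 25.8, 31.8 and 29.9 FPKM in wild type and 2.34, 2.19 and 4.42 FPKM in the knockout (log2 change -2.96, limma adjusted p = 0.00349). Pcolce2, an enhancer of procollagen C-proteinase, had a log2 change of -1.77 (limma adjusted p = 0.0234) and Postn, the matricellular protein periostin, one of -1.22 (limma adjusted p = 0.0286). Adamts2, the procollagen N-proteinase, was the fourth, named after its values were seen (log2 change -0.76, limma adjusted p = 0.0290). Bmp1, the protease that activates Lox, had values of 9.92, 12.9 and 6.06 FPKM in wild type and 5.32, 4.07 and 3.08 FPKM in the knockout and did not pass (log2 change -1.01, limma adjusted p = 0.0846). The count was 1 when replicate 1 or 2 of either group was left out, 2 without knockout replicate 3, 5 without wild-type replicate 3, and 2 without both libraries that stood apart.

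Genes that supply copper, the cofactor of the enzymes, were not called. Of 10 genes, 9 passed the filter, and limma called 0 in either direction, with 1 at an unadjusted p under 0.05, which lay higher, 0 called by voom on the recovered reads and 1 called higher with library weights. Their median log2 change was 0.06, the same as over all genes. The nearest to a call was Slc31a2, a copper transporter gene, at 21.9, 22.5 and 24.7 FPKM in wild type and 28.6, 30.6 and 28.1 FPKM in the knockout (log2 change 0.33, limma adjusted p = 0.151). Slc31a1, the main copper importer (0.21), and Sco1, a mitochondrial copper chaperone (0.23), did not pass either, and Sco2 was listed at 0 in all libraries. Of the other copper amine oxidases, Aoc3, the vascular adhesion protein of endothelium and fat, fell from 5.10 ± 1.15 to 0.843 ± 0.132 FPKM (SD, n = 3), a log2 change of -1.71 (limma adjusted p = 0.00712). Aoc3 reached the filter through its wild-type levels, since every knockout library was under 1 FPKM. Aoc2 had a log2 change of 0.09, and Aoc1 did not reach the filter.

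Lysyl hydroxylation helps decide which cross-links form, and its genes lay in both directions. Of 8 genes, 2 fell and 1 rose, against 3.82% and 1.34% of all genes tested (median log2 change of the list -0.50). Plod2, which hydroxylates the telopeptide lysines that Lox acts on, was at 13.7, 16.5 and 9.15 FPKM in wild type and 6.75, 4.42 and 3.63 FPKM in the knockout (log2 change -1.25, limma adjusted p = 0.0427). P3h3, a member of a complex with Plod1, also fell (log2 change -0.77, limma adjusted p = 0.0470). Plod3, which hydroxylates lysines and adds sugars to them, rose from 14.2 ± 1.6 to 22.0 ± 1.80 FPKM (SD, n = 3), its highest wild-type library at 16.0 and its lowest knockout library at 20.5 FPKM (log2 change 0.60, limma adjusted p = 0.0445). With any single library left out 0 of the 8 were called higher, and 0 lower except without wild-type replicate 3, where 2 were.

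Of 15 signals and transcription factors known to act on Lox genes, 1 fell, a share not far from the 3.82% of all genes called lower. It was the growth factor gene Tgfb3, from 8.79 ± 3.21 to 2.48 ± 0.517 FPKM (SD, n = 3), a log2 change of -1.45 (limma adjusted p = 0.0290). The median of the 15 was -0.36, and 12 of them had a negative change. Of the 15, 8 lay lower in every knockout library than in any wild-type library, against 13.7% of all genes tested. Snai2, a transcription factor of mesenchymal cells (log2 change -0.48, limma adjusted p = 0.0517), and Epas1, the hypoxia factor HIF-2 alpha (-0.54, limma adjusted p = 0.0711), did not pass. With single libraries left out 0 of the 15 were called lower, except without wild-type replicate 3, where 1 was, and 0 were without both libraries that stood apart.

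**Figure D4:**
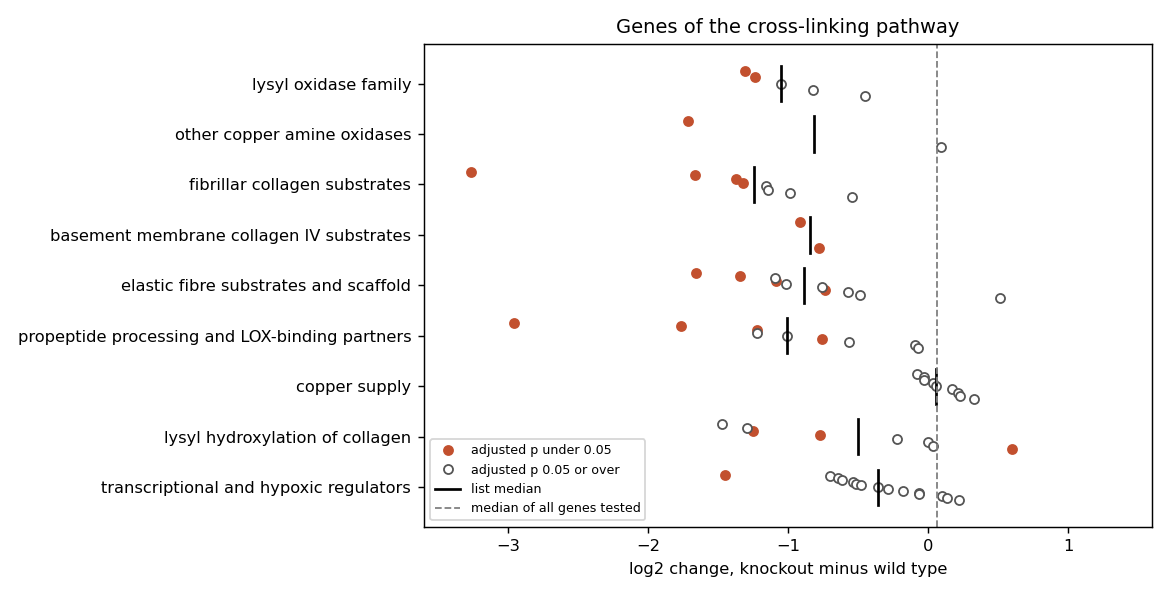
Log2(FPKM + 1) change, knockout minus wild type (x axis), of each gene that passed the filter in the family and in 8 lists of the cross-linking pathway (y axis), filled where the limma adjusted p was under 0.05, with a bar at each list's median and a dashed line at the median of all genes, 0.06. Collagen, elastic fibre and propeptide lists lie mostly left of the line, and copper supply genes lie around it.

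Markers of several cell types moved with the members. Counts here are over the markers that passed the filter, and sums are over all listed markers. Of all genes tested, 3.82% were called lower and 1.34% higher. For osteoblasts 3 of 9 markers were called lower, with a summed level of 1388 to 2631 FPKM in wild type and 572 to 1218 FPKM in the knockout. Chondrocyte markers were called lower in 6 of 6 (sums of 180 to 267 and 7.10 to 25.8 FPKM), tendon and fibroblast markers in 6 of 7 (109 to 146 and 27.2 to 34.0 FPKM) and endothelial markers in 2 of 7 (67.4 to 77.3 and 46.4 to 47.9 FPKM). Adipocyte markers were called lower in 6 of 6 (sums of 491 to 761 and 63.1 to 138 FPKM), skeletal muscle markers in 4 of 7 (3451 to 6168 and 1736 to 2558 FPKM) and Schwann cell markers in 2 of 3 (32.4 to 39.1 and 18.1 to 20.5 FPKM). Of the osteoclast markers 1 of 7 was called lower, with a median log2 change of -1.33 (sums of 883 to 1577 and 392 to 607 FPKM). Neutrophil precursor markers lay the other way in sum, with 3 of 8 called higher (11207 to 20233 and 21627 to 27407 FPKM). The most abundant of them was S100a8. Camp (1880 to 4107 FPKM in wild type and 2667 to 3666 FPKM in the knockout) and Ngp overlapped between the groups, while the rest of that list lay higher in the knockout. B cell and macrophage markers each had 1 called lower, of 7 and of 6, and erythroid and megakaryocyte markers had 0 called. No marker of these lists was at 0 in all libraries. The defining cartilage gene Matn3 stood at 8.94 to 17.6 FPKM in wild type and 0 to 0.841 FPKM in the knockout. It reached the filter through its wild-type levels, as did Plin1 and Retn (adipocyte) and Tnmd and Scx (tendon and fibroblast). Each was under 1 FPKM in every knockout library, and the counts of these lists rest in part on such genes. The filter was passed by 6 of 8 listed markers for chondrocytes, 7 of 8 for tendon and fibroblasts and 6 of 7 for adipocytes. For Schwann cells 3 of 6 passed it, and for megakaryocytes 5 of 6. In bulk bone, fewer cells of a type and less RNA per cell cannot be told apart.

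Each member was therefore also expressed relative to these genes, as log2(FPKM + 1) minus the log2 of summed collagen I (Col1a1 and Col1a2) or minus the mean log2 level of a marker list. Relative to collagen I the groups overlapped for every member. The difference between knockout and wild type was -0.15 ± 0.40 for Lox, -0.08 ± 0.36 for Loxl1, 0.34 ± 0.34 for Loxl2, 0.71 ± 0.45 for Loxl3 and 0.11 ± 0.41 for Loxl4 (SE, n = 3; exact permutation p of 0.3 to 0.9). The signs for Lox, Loxl1 and Loxl4 changed in some of 9 alternatives. Relative to osteoblast markers, which include Col1a1, the groups overlapped too, with differences of -0.12 ± 0.21 for Lox, -0.05 ± 0.17 for Loxl1, 0.36 ± 0.17 for Loxl2, 0.74 ± 0.34 for Loxl3 and 0.14 ± 0.34 for Loxl4 (exact permutation p of 0.2 to 1, n = 3). Values near 0 were also seen against lists of other cell types. Relative to skeletal muscle markers Lox stood at -0.05 ± 0.44 and Loxl1 at 0.02 ± 0.27, and relative to osteoclast markers at -0.13 ± 0.09 and -0.06 ± 0.20, all with overlap between the groups. Loxl3 was higher in all knockout libraries relative to both of these lists (0.80 and 0.73).

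Against the lists of yet other cell types the differences lay in both directions. Relative to chondrocyte markers every member was higher in all knockout libraries, by 1.25 for Lox to 2.10 for Loxl3 (exact permutation p = 0.1, n = 3), and likewise relative to adipocyte markers, by 1.05 for Lox to 1.9 for Loxl3. These sizes depend on the constant added to the levels. With 0.1 FPKM in place of 1, Lox stood at 2.21 against chondrocyte markers and 1.87 against adipocyte markers. Relative to neutrophil precursor markers every member was lower in all knockout libraries, with differences of -2.17 for Lox to -1.32 for Loxl3. Relative to tendon and fibroblast markers Loxl2 (0.71) and Loxl3 (1.08) were higher in all knockout libraries, and the other members overlapped. Lox, at 0.23 relative to this list, was at 0.68 with a constant of 0.1 FPKM. Relative to endothelial markers Lox (-0.74), Loxl1 (-0.67) and Loxl4 (-0.48) were lower in all knockout libraries, and Loxl2 (-0.26) and Loxl3 (0.11) overlapped. The part of cell make-up in the changes of the members was not tested.

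**Figure D5:**
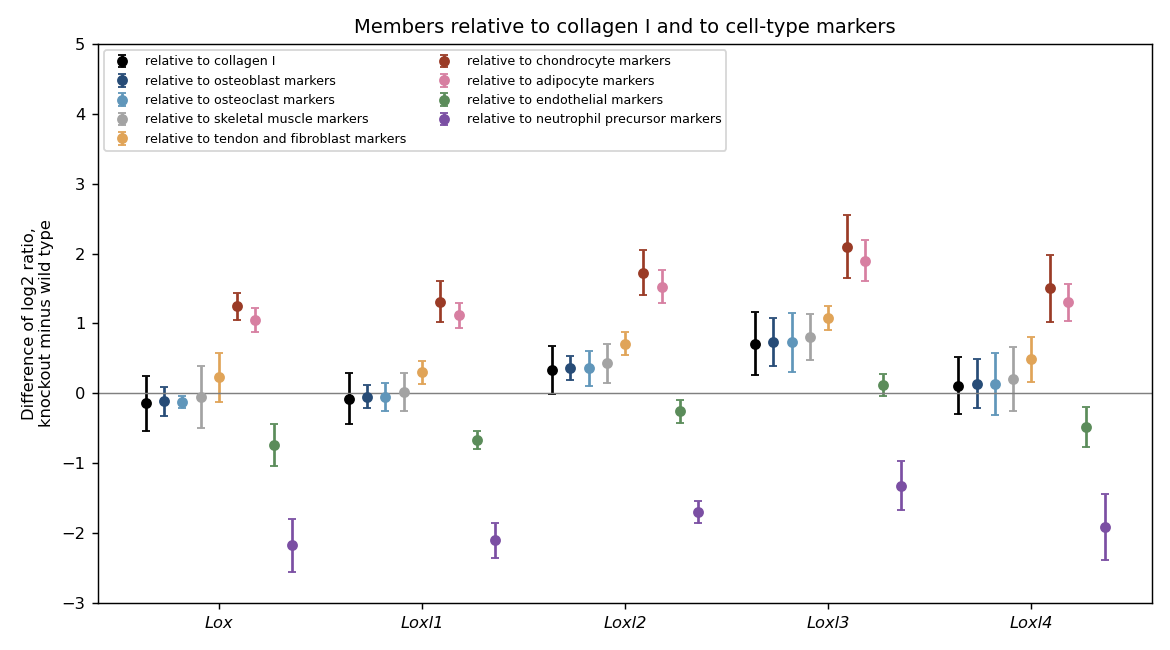
Difference between knockout and wild type in the log2 ratio of each member (x axis) to collagen I or to the markers of a cell type (y axis, log2 units; points with SE bars, n = 3 per group). Points for chondrocyte markers lie highest (1.25 to 2.10), those for adipocyte markers next, those for neutrophil precursor markers lowest (-2.17 to -1.32), and those for collagen I, osteoblast, osteoclast and skeletal muscle markers lie around 0 for Lox and Loxl1. The heights of the chondrocyte and adipocyte points depend on the constant added, here 1 FPKM.

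The changes stood beside the seed matches as follows. Loxl2, with 2 8mers, had a log2(FPKM + 1) change of -0.82, Lox, with 3 7mers, one of -1.31, and Loxl4, with 1 7mer, one of -1.05 (-2.01 by voom). Loxl1, with no 7mer, had a change of -1.24 and Loxl3, also with none, one of -0.45. In all tested genes with a 3′ UTR, 4.91% of those with the 7mer and 4.24% of those without were called lower, and 16 of 1896 with it and 141 of 9766 without it were called higher. Whether any member responds directly to miR-29 was not tested.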

How the data were processed

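RNA-seq of bone was analysed in 3 wild-type and 3 knockout libraries, grouped by the genotype in the labels. The authors deposited FPKM values per gene, with 1 column per library. Bowtie 0.12.2 and the build mm10 are named in the submitters' processing notes. The counting tool, the annotation and the use of strand were not given in the sources used here. Libraries were made with a TruSeq RNA kit, per the labels' protocols.

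Of the identifiers, 54495 matched GENCODE M21, which supplied names, coordinates, exon lengths and 3′ UTRs. Multiplied by exon length and by the scaling of its library (divisors of 16578350 to 20596651 reads), the FPKM values gave whole reads in all libraries for 96.9% of 29600 genes above 0 (tolerance 0.01 reads). On chromosomes 18 and 19, which hold Lox and Loxl4, 47.3% and 46.9% of such genes did not. On chromosomes 9, 14 and 6, which hold the other members, 0.061 to 0.11% did not. Loxl4 gave whole reads with its annotated length of 4213 bases. For Lox a length of 4810 bases gave whole reads, where the annotation gives 4778, so its read numbers rest on a length found from the values.

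Values were tested as log2(FPKM + 1) with limma 3.58.1 in R 4.3.3 (variance trend, all 6 libraries, Benjamini-Hochberg over 13619 genes averaging at least 1 FPKM, threshold 0.05). Changes of low genes come out too small on this scale. All adjusted p-values of genes come from limma. Single values were compared by two-sided exact permutation tests. The limma step was run on simulated counts with known changes and a fixed spread for all genes. They held no length trend and no libraries that stand apart, so that run does not show how calls behave in these libraries. The members, gene lists and markers were chosen with earlier results of these data known. Named genes are the members, up to 3 genes per list with the smallest p, and the 3 protein-coding genes most like each member. Outside this rule, and after values were seen, Col1a1, Col1a2, Col11a2, Eln, Fbn1, Emilin1, Bmp1, Adamts2, Matn3, Plin1, Retn, Tnmd, Scx, S100a8, Camp, Ngp and overlapping genes were also named. Alternatives covered the pseudocount, filter, scaling, variance model, library weights, replicate block, length trend, voom on recovered reads and left-out libraries. Counts of list members under these were added after seeing the data. Figures were drawn with matplotlib 3.10.9.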

Additional observations from a re-analysis of the deposited data

How the results depend on the processing

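All 5 members kept a negative change under every alternative in which they could be fitted. Lox passed the limma threshold in 12 of 19 alternatives (log2 change -1.54 to -0.84, the last with library weights, adjusted p 0.0275 to 0.140), Loxl1 in 17 of 19 (-1.39 to -1.0), Loxl2 in 7 of 18, Loxl3 in 1 of 18 and Loxl4 in 4 of 17. The number of members called lower, 2 as reported, was 4 with a pseudocount of 0.1, 1 with no filter, 5 with library weights, 1 without both libraries that stood apart, 4 with the length trend removed, 4 with voom, and 0 to 2 with single libraries left out (0 without wild-type replicate 1 or knockout replicate 2). The count over all genes, 703 as reported, was 143 with no filter, 365 at a mean FPKM of at least 5, 3354 with library weights, 127 with the replicate block, 238 without both libraries that stood apart, 1216 with the length trend removed, and 62 to 409 with single libraries left out (62 without wild-type replicate 1). Library weights split the calls into 1551 higher and 1803 lower, against 183 and 520 as reported. Voom on the recovered reads called 857 genes. The replicate block left 2 members called lower (Lox, adjusted p = 0.0341 by limma, and Loxl1, 0.0444). Deviations of same-numbered libraries correlated at -0.49, -0.27 and 0.16, and not every library correlated best with its own number. The highest value, 0.55, was between wild-type replicate 2 and knockout replicate 1, the libraries that stood apart. Deviations within so few libraries depend on each other, so the check cannot decide whether the numbers pair the libraries. With the 8mer as the site 1 member held a match, and with the 6mer 4 did. At a mean FPKM of at least 5, Loxl2, Loxl3 and Loxl4 were not tested, and Loxl4 was not without wild-type replicate 1. The cause of these shifts was not tested. Depth limits Loxl4 most, at 30 to 45 reads per knockout library.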
